A study of Drosophila melanogaster with 3 samples.

Results

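Of 7137 reproducible binding sites of CG2116-eGFP in whole fly embryos, 2517, or 35.3%, had their summit just upstream of the start of a single protein-coding gene. A site was kept when its summit, the base of highest signal, lay within 500 bp of annotated transcription start sites (TSSs) of exactly 1 protein-coding gene and upstream of the nearest of them. The side of the TSS, the 500-bp limit and the single gene were thus fixed by the choice and are no findings. The 2517 peaks belonged to 2230 of 13945 protein-coding genes, a share of 16.0%. A single such peak was found at 1975 genes, 230 genes had 2, and 25 genes had 3 or more, up to 4. Summed over the list, they carried 42.6% of the pooled signal.

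The sites came from chromatin immunoprecipitation and sequencing (ChIP-seq) with an antibody against GFP. The animals were Drosophila melanogaster embryos, males and females together, collected between 0 and 24 h of development, of a transgenic line that stably carries CG2116 fused to GFP at the C terminus. There was 1 group of 3 libraries, biological replicates 1, 2 and 4, and no second genotype, stage or treatment. All cell types and stages of the embryo were mixed, so the cells that gave each peak are not known, and whether the line still makes untagged protein is not stated.

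The list analysed was filtered by irreproducible discovery rate (IDR), a step that keeps peaks whose ranks agree between replicates. Each replicate also had a relaxed list of 30000 candidate peaks, with median widths of 530, 600 and 444 bp in replicates 1, 2 and 4. Sequencing depth is unknown here, and an untagged or input library was not analysed here. Signal in a replicate was divided by the median signal of all IDR peaks matched within 100 bp in that library, so that 1 is a typical IDR peak. Of the 2517 peaks, 2290 had a matching summit in all 3 replicate lists, 193 in 2, 32 in 1 and 2 in none, and a mean over replicates is given only for the 2290.

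A promoter is the stretch of DNA around a TSS where the general transcription machinery and RNA polymerase II assemble. In flies, promoters of genes used in most cells often carry the DNA replication-related element (DRE), bound by the factor Dref, or Motif 1, bound by M1BP, whereas promoters of regulated genes more often carry a TATA box, GAGA repeats or an initiator. The short sequence CGATA is the core of the site of BEAF-32, an insulator protein found beside many active genes, and it also lies inside the DRE. CG2116 itself encodes a protein with no named function in the annotation used here.

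Many of the strongest peaks held an 8-base element, GCAACNCT, first noticed in an earlier look at these same peaks. To show its flanks, 10 of the strongest peaks that hold it are given as 30 bases each, read along the element from 5′ to 3′, with the element in capitals. On dm6 they lie at chr3R:26041678-26041707 (gro), chr2L:5907116-5907145 (bchs), chr2L:9616758-9616787 (GlcAT-S), chr3L:2635678-2635707 (MEP-1) and chr3L:8424897-8424926 (Cbl). The others lie at chrX:9778688-9778717 (CG1354), chr3L:17476153-17476182 (CG34250), chr3R:8820767-8820796 (aqz), chr2L:9758015-9758044 (zf30C) and chr3L:5932565-5932594 (Rcc1). The strand is + for all but CG34250 and Rcc1, which are on the - strand.
gro: cactggcgcatGCAACACTgcgccgctgaa
bchs: ggcagcgctacGCAACACTcgacagaataa
GlcAT-S: aaaaaccgaatGCAACACTgcgccagctgt
MEP-1: cgataagccgtGCAACCCTgcgcgcgccct
Cbl: cacagcgaaatGCAACCCTtcgatcagtgt
CG1354: ctagtcggcatGCAACCCTgcgcgtcaaca
CG34250: attgattctctGCAACTCTagcgggtgact
aqz: aatatgtttagGCAACTCTgggttcgagac
zf30C: aatcgggcaatGCAACCCTggattgcggct
Rcc1: tcgccaagcccGCAACACTgtaccctgaag
Of these 10, 7 have T just before the element, 7 have G just after it, and 5 have both.

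For comparison, 3 of the weakest peaks with the same 8 bases are given in the same way. They lie at chr2L:13371071-13371100 on the + strand (ND-B22), chr3R:30570855-30570884 on the + strand (tmod) and chr3L:16783004-16783033 on the - strand (CG9706), with mean relative signals of 0.425, 0.459 and 0.470.
ND-B22: tttagagaacgGCAACTCTgaaatgaatgg
tmod: aatttacattgGCAACCCTttgggccaact
CG9706: atatttttataGCAACTCTctgtcgcacta
None of the 3 has T before the element and 1 has G after it.

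Whole promoters show how the element sits among other sequences. The 100 bases that end just before the TSS are given along the gene for 5 peaks whose window overlaps no annotated exon. Capitals mark the 8-base element, CGATA on either strand (the DRE, TATCGATA, holds it on both) and the Motif 1 core, GGTCACAC. The promoters of gro (chr3R:26041636-26041735, + strand) and MEP-1 (chr3L:2635662-2635761, + strand) are among the strongest. Those of RpL37-1 (chrX:15139368-15139467, - strand) and a6 (chrX:1695890-1695989, - strand) belong to strong peaks with a DRE. That of lute (chr3R:17385791-17385890, + strand) belongs to a strong peak with Motif 1 and neither other element. RpL37-1 and a6 had mean relative signals of 36.8 and 29.6. Stronger peaks with a DRE are not shown, among them pic, RpL6 and Tbp at means of 44.4, 41.1 and 38.3.
gro: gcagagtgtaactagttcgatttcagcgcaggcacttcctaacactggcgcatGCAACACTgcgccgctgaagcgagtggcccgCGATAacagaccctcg
MEP-1: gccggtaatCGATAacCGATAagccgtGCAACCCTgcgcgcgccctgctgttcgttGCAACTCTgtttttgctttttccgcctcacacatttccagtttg
RpL37-1: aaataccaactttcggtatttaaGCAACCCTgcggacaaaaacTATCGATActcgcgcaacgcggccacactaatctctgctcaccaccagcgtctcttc
a6: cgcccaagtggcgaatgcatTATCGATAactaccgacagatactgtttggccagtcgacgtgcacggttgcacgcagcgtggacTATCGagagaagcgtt
lute: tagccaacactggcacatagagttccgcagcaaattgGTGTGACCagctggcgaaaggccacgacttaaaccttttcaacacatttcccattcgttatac
In these windows the pooled summit falls at base 73 of gro, 27 of MEP-1, 5 of RpL37-1, 58 of a6 and 96 of lute. Sequence is from the RefSeq copy of Release 6, the assembly called dm6.

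Summits sat close to the TSS. The median distance of the pooled summits was -80 bp, counted along the gene, with quartiles of -189 and -41 bp, and 57.7% of them were within 100 bp of the TSS. Replicates 1, 2 and 4 gave medians of -81.5, -88 and -78 bp, a mean of -82.5 ± 5.07 bp (SD, n = 3). The replicate medians thus lay within 10 bp of each other, although 4.25%, 4.71% and 2.99% of their matched summits fell at or past the TSS. For a single peak, the 3 replicate summits had a median SD of 19.1 bp. All 3 lay within 25 bp of the pooled summit at 37.6% of the 2290 peaks matched in all 3.

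**Figure D1:**
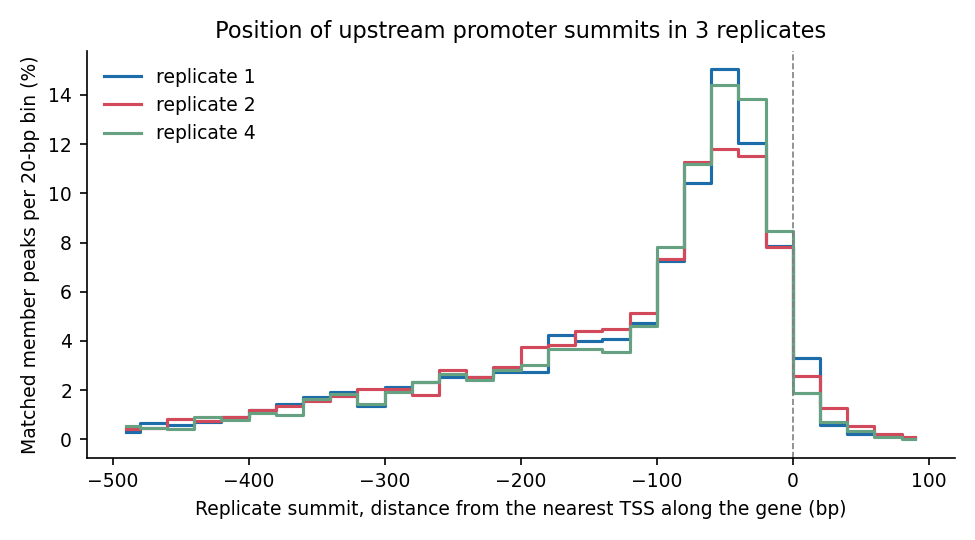
Share of matched replicate summits (y axis, percent per 20-bp bin) by distance from the nearest TSS along the gene (x axis, bp) in replicates 1, 2 and 4. All 3 lines are highest within 100 bp upstream of the TSS, with medians of -81.5, -88 and -78 bp.

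The strength of a peak went with its place. Split by pooled signal into 4 sets, the strongest 629 peaks had a median position of -68 bp, the next sets -81 and -82 bp, and the weakest 630 peaks -100.5 bp. Within 100 bp of the TSS lay 424 of the strongest 629 and 315 of the weakest 630. Genes with 2 or more annotated starts in the window had a median of -65 bp over 431 peaks, against -84 bp over 2086 peaks with 1 start. Distance was counted to the nearest start, so more starts in the window shorten it by construction.

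The median relative signal was highest at 76 to 100 bp upstream in replicates 1 and 4 and at 51 to 75 bp in replicate 2. At 76 to 100 bp it was 1.31, 1.11 and 1.23 in replicates 1, 2 and 4, and beyond 300 bp it was 0.777, 0.875 and 0.801. The farthest bin was the lowest of the 8 bins in each replicate. Without peaks beside a stronger summit, that bin gave 0.846, 0.863 and 0.834.

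**Figure D2:**
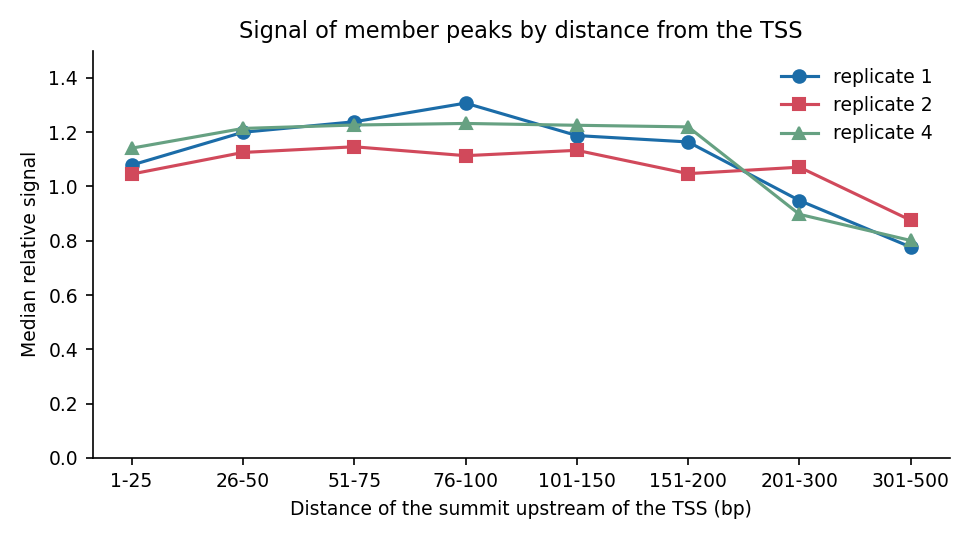
Median signal relative to the replicate's median IDR peak (y axis) for 8 bins of distance upstream of the TSS (x axis, bp), 1 line per replicate. In all 3 replicates the farthest bin is the lowest, at 0.777, 0.875 and 0.801.

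Part of the far tail consisted of weaker summits beside a stronger one. A stronger pooled summit lay within 400 bp of 248 of the 2517 peaks, or 9.85%, at a median gap of 204 bp (upper quartile 218). The stronger summit was at lower coordinates for 91 peaks of + strand genes and 148 of - strand genes, and at higher coordinates for 3 and 8. A weaker summit at the higher coordinate lies upstream of its neighbour for a gene on the - strand and downstream of it for one on the + strand. Of single-gene summits downstream of + strand TSSs, 37.1% had a stronger neighbour at lower coordinates, against 7.53% of those upstream of + strand TSSs. The cause of the one-sided spacing was not tested.

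These secondary summits were picked for having a stronger neighbour, so their lower signal is in part built in. Their median position was -250.5 bp, and their median relative signal was 0.769, 0.977 and 0.563 in replicates 1, 2 and 4. Without them the median over the remaining 2269 peaks was -73 bp, and the strands, at -74 bp for + and -88 bp for - with all peaks, came to -72.5 and -74 bp. Of the 255 genes with more than 1 peak, 168 had their strongest and second strongest peaks assigned to the same TSS. Ranked by pooled signal, the first and second peaks of all 255 genes had a median gap of 209 bp. The second peak had a median of 53.0% of the pooled signal of the first, and 191 of the 255 second peaks lay beside a stronger summit. For 87 genes the first and second peaks belonged to different TSSs and lay a median of 3191 bp apart.

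All 3 libraries held most of these peaks among their own strongest. A summit within 100 bp was among the 7137 strongest of replicate 1 for 89.4% of the peaks, of replicate 2 for 84.8% and of replicate 4 for 89.3%, a mean of 87.8% ± 2.63 (SD, n = 3). All 3 held 1846 of the 2517, 73.3% (exact 95% interval 71.6 to 75.1), where over all IDR peaks the share was 64.5%. The share was 49.6% for the 462 peaks downstream of single genes, 72.7% for the 2187 peaks at the starts of 2 or more genes and 47.7% for the 1971 peaks away from protein-coding starts. It fell with pooled signal, from 98.9% of the strongest 629 to 22.2% of the weakest 630. The filter that made the list used the same libraries, which builds part of the recovery in, and differences between classes were not tested.

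Typical strength lay between that of the other classes. The median relative signal of the upstream peaks was 1.11, 1.07 and 1.12 in replicates 1, 2 and 4, a mean of 1.10 ± 0.0296 (SD, n = 3). Single-gene downstream peaks had 0.831, 0.855 and 0.814, and peaks at the starts of 2 or more genes 1.38, 1.42 and 1.27. The order of these 3 classes was the same in each replicate. The ratio of upstream to downstream medians was 1.34, 1.25 and 1.38, a mean log2 ratio of 0.40 ± 0.07 (SD, n = 3; exact sign-flip permutation test over replicates, two-sided, p = 0.25). The smallest p that 3 replicates allow is 0.25, so no ratio here can pass a threshold of 0.05.

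A small set of peaks stood far above the rest. Over the 2290 peaks matched in all 3 replicates, the mean relative signal had a median of 1.12, with 0.739 and 1.94 as quartiles, and it reached 70.3. On a log2 scale the counts fell steadily to 18 peaks between 8 and 11.3 times the replicate median, stayed at 16 to 19 up to 32 times, and rose again to 28 peaks between 32 and 45.3 times. A threshold of 10, chosen after these values were seen, kept 100 peaks at 98 genes, and 69 peaks exceeded 20. Of these peaks and others near the threshold, 94 were above 10 in all 3 replicates and 107 in at least 1. Peaks above 10 were not particular to this class. At the starts of 2 or more genes, 29 peaks with the 8-base element and 65 without it exceeded 10. As a description over peaks of shared libraries, Spearman's rho of relative signal was 0.863 between replicates 1 and 2 (2346 peaks), 0.869 between 1 and 4 (2383 peaks) and 0.799 between 2 and 4 (2334 peaks).

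**Figure D3:**
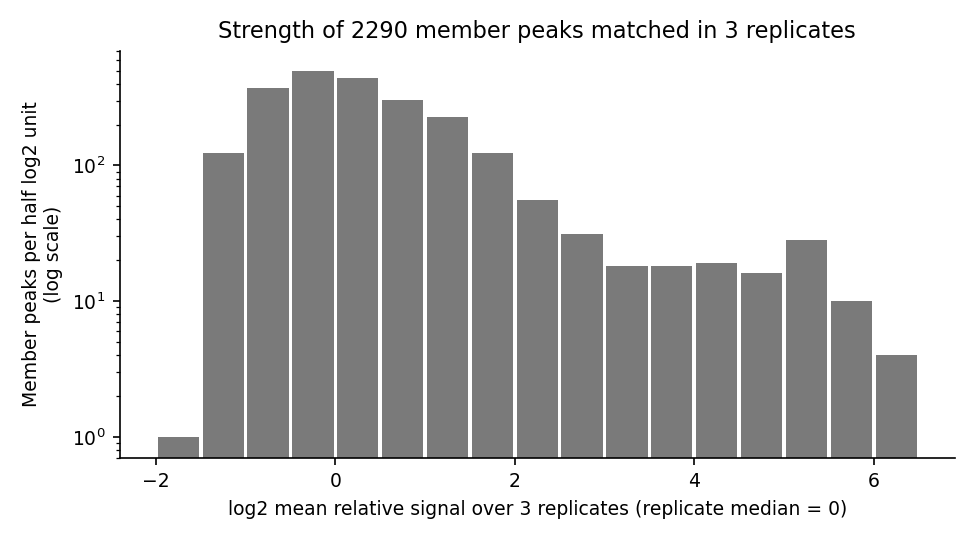
Number of peaks (y axis, log scale) by log2 mean relative signal over the 3 replicates (x axis, half-unit bins) for the 2290 peaks matched in all 3. The counts fall to 18 peaks, stay level and rise to 28 peaks in the bin from 5 to 5.5, that is 32 to 45.3 times the replicate median.

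The strongest peak was that of gro, which encodes the Groucho corepressor. It lay 28 bp upstream of the TSS, with its summit at chr3R:26041708, and had 74.0 in replicate 1, 65.5 in replicate 2 and 71.5 in replicate 4, a mean of 70.3 ± 4.38 (SD, n = 3). bchs, which encodes a large BEACH-domain protein linked to autophagy, had 65.8, 60.0 and 78.9 (68.3 ± 9.70). eIF2A, a factor that can deliver initiator tRNA to ribosomes, had 69.9, 58.7 and 74.7 (67.8 ± 8.19). Replicate 2 was the lowest at these 3 genes, and their ranges overlapped.

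GlcAT-S, a glucuronyltransferase of glycan synthesis, had 65.0, 56.6 and 71.7 (64.4 ± 7.60) in replicates 1, 2 and 4. Calr, the calreticulin chaperone of the endoplasmic reticulum, had 62.3, 52.6 and 76.5 (63.8 ± 12.01). MEP-1, a zinc finger partner of the chromatin remodeller Mi-2, had 60.6, 52.2 and 57.1 (56.7 ± 4.20). Replicate 2 was again the lowest in each, and replicate 4 the highest at GlcAT-S and Calr only.

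Polr2F, a subunit of RNA polymerase II, had 55.1, 43.1 and 57.4 (51.9 ± 7.65). Cbl, a ubiquitin ligase that damps receptor signalling, had 52.6, 42.5 and 58.6 (51.2 ± 8.15). CG1354 had 51.5, 40.5 and 60.4 (50.8 ± 9.96). The spread of each of these 3 over replicates exceeded the differences between their means.

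CG34250 had 54.3, 49.9 and 47.9 (50.7 ± 3.28). alc, the beta subunit of the energy sensor AMP-activated kinase, had 52.9, 46.4 and 52.2 (50.5 ± 3.58). RpLP2, a protein of the ribosomal stalk, had 54.6, 48.3 and 45.3 (49.4 ± 4.70). At CG34250 and RpLP2 replicate 4 was the lowest in place of replicate 2. The other 13 of the 25 strongest had means from 46.7 down to 38.5. They were Fmr1 (the fragile X RNA-binding protein), Sry-delta, aqz, pic (the DDB1 homologue), CG14712, CG12391, angel, RpL6, zf30C, VhaPPA1-1 (a subunit of the vacuolar proton pump), Sik3 (a salt-inducible kinase), Cdc6 (a replication licensing factor) and Rcc1 (the exchange factor of Ran).

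Among the 25, replicate 2 was the lowest at 17 and replicate 4 at 8, and replicate 1 at none. The coefficient of variation over replicates was 12.1% in the median, from 4.46% to 20.2%. These 25 of the 2517 peaks held 19.5% of their pooled signal. The 8-base element was in the windows of 13 of them, the DRE in 4 and Motif 1 in 4. Over all 2517 peaks the shares were 9.54%, 16.8% and 10.01%, so the DRE was near its general share. CGATA was in 15 of the 21 peaks with a mean above 40, or 71.4%, against 53.7% of all 2517. The functions of the 25 genes, as far as they are named, were mixed: signalling, translation, protein folding, transcription and chromosome replication each occurred.

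**Figure D4:**
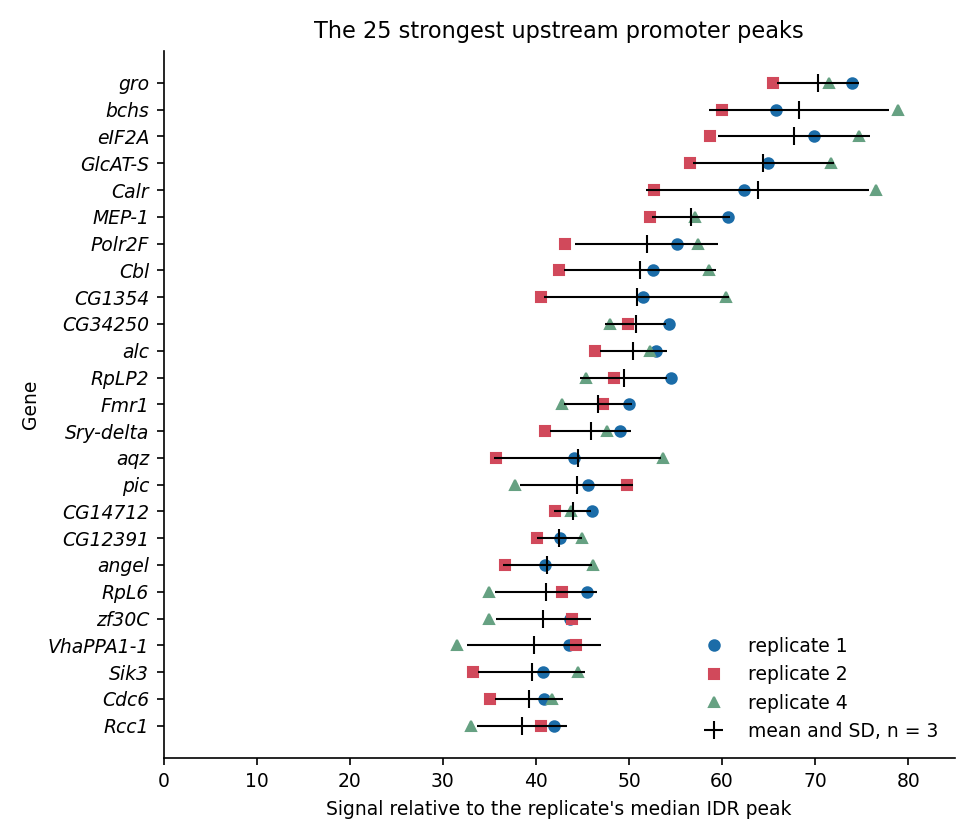
Relative signal (x axis, multiples of the replicate's median IDR peak) of the 25 strongest upstream promoter peaks (y axis, gene) in replicates 1, 2 and 4, with the mean and SD (n = 3). Means run from 70.3 at gro to 38.5 at Rcc1, and replicate 2 is the lowest at 17 of the 25.

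The spread over replicates was widest among weak peaks, with a median coefficient of variation of 23.1% for means of up to 1 and 12.8% between 5 and 10. Among peaks with a mean over 5, the coefficient of variation was largest at a secondary summit of Trx2, a thioredoxin, where replicates 1, 2 and 4 gave 7.40, 10.5 and 2.64. Ugalt, a Golgi transporter of UDP-galactose, had 5.03, 2.84 and 7.16, and POLDIP2 had 6.80, 3.43 and 7.15. Replicate 4 was low at Trx2 and replicate 2 at the other pair.

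Sequence around the summits was searched on both strands in windows of 100 bp to each side. The same was done for windows at 7038 single protein-coding starts without an IDR peak, centred 80 bp upstream. CGATA, the BEAF-32 core, was in 53.7% of the upstream peaks (exact 95% interval 51.7 to 55.7), in 25.5% of the starts without a peak and in 39.2% of all 13945 starts. The DRE, TATCGATA, which always holds CGATA, was in 16.8% (15.3 to 18.3), against 1.38% and 8.07%. The Motif 1 core was in 10.01% (8.87 to 11.3), against 1.48% and 5.74%. The element GCAACNCT was in 9.54% (8.42 to 10.75), against 2.64% and 4.93%.

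Motif 6 (GTATTTT) and Motif 7 (CATCNCTA), further elements of fly core promoters, were also more frequent at the peaks, at 17.2% and 7.99% against 8.23% and 1.71% of starts without one. The initiator core TCAGT ran the other way, at 30.6% against 47.4%, as did TATAAA at 30.4% against 36.3% and GAGAGAG, the site of the GAGA factor, at 3.73% against 5.53%. CAGGTAG, the site of the early activator Zelda, was in 0.516% of the peaks and 1.44% of starts without one. The windows were not matched for base composition, and held 37.1% G and C at the peaks and 41.1% at starts without one. Nor were they matched for place. All windows at starts without a peak reach the TSS, while only 57.7% of the peak summits lay within 100 bp of it. In the peak windows TATAAA lay at a median of -146.5 bp from the TSS and TCAGT at -97 bp. These shares thus count short sequences at any position, and the part of place in the differences was not tested. Of the 1266 8-mers present in at least 50 peak windows, the 10 with the highest ratio to starts without a peak all held CGAT on 1 strand, led by ACCTATCG in 2.62% of the peaks and 0.156% of the other starts.

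Compared with peaks at the starts of 2 or more genes, the upstream peaks differed little in CGATA, the DRE, Motif 1 and GCAACNCT. Peaks at the starts of 2 or more genes held CGATA in 56.2%, the DRE in 16.7%, Motif 1 in 9.60% and GCAACNCT in 8.09%. Single-gene downstream peaks held these elements in 43.7%, 12.3%, 9.52% and 7.79%, with 41.6% G and C in their windows. TATAAA was in 30.4% of the upstream peaks, 22.1% of single-gene downstream peaks and 35.8% of peaks at the starts of 2 or more genes. GAGAGAG was in 1.19% (0.778 to 1.74) of peaks at the starts of 2 or more genes, against 3.73% (3.03 to 4.55) here. It was in 3.68% of single-gene downstream peaks and 4.52% of peaks away from protein-coding starts. Peaks away from protein-coding starts held the DRE in 2.59% and Motif 1 in 0.660%. None of these differences was tested, since peaks of 1 list are not replicates.

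The elements differed in where they lay. Per base, DREs were 2.75 times as frequent within 25 bp of the summit as at 51 to 75 bp from it, CGATA 2.29 times and GCAACNCT 2.23 times. The same ratio was 0.879 for Motif 1 and 0.962 for Motif 7, and 21.6% and 28.7% of their matches lay upstream of the summit, against 44.6% for the DRE. From the TSS, Motif 1 lay at a median of -11.5 bp (quartiles -52.5 and 12.5) and the DRE at -44.5 bp (quartiles -77.5 and -17.5), and 74.2% of the Motif 1 matches read in the direction of the gene. Motif 7 had a median of -22 bp, with 78.7% in the direction of the gene. GCAACNCT lay at a median of -59.5 bp, with 59.7% in the direction of the gene, and CGATA at -48 bp, with 51.8%. Only summits upstream of the TSS were kept, so an element near the TSS falls mostly downstream of the summit by construction. Positions from the TSS were likewise read only from windows around such summits, and are in part built in.

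Peaks with a DRE or CGATA were stronger than those without. The ratio of median relative signals with over without a DRE was 1.65, 1.64 and 1.60 in replicates 1, 2 and 4, and with over without CGATA it was 1.53, 1.54 and 1.502. For GCAACNCT it was 1.33, 1.35 and 1.45, and for Motif 1 it was 1.02, 0.925 and 0.987. The first 3 were above 1 in each replicate, while that of Motif 1 changed sides (exact sign-flip permutation tests, two-sided, p = 0.25 for each of the 3 and p = 0.75 for Motif 1). The GATA site AGATAAG, in 62 peaks, had the lowest ratios, 0.671, 0.679 and 0.632. Peaks with CGATA also lay nearer to the TSS, at a median of -59 bp against -139 bp without it, and the part of position in the ratio was not tested.

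Signal rose with the number of CGATA matches, of which a DRE counts as 2. The median over replicates was 0.884 ± 0.0199 (SD, n = 3) over 1165 peaks with no match, 0.980 ± 0.0243 over 457 with 1 and 1.37 ± 0.00929 over 378 with 2. It was 1.60 ± 0.0539 over 279 with 3 and 1.95 ± 0.0890 over 238 with 4 or more. The same order held in replicates 1, 2 and 4 singly, from 0.884, 0.865 and 0.904 to 1.94, 1.86 and 2.04. The share of peaks above 10 did not keep this order, at 2.15%, 4.16%, 6.08%, 7.17% and 5.46%. Median position moved with the number of matches too, at -139, -86, -55, -53 and -48 bp, and its part in the rise was not tested.

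The DRE and GCAACNCT were spread differently over the range of strength. The DRE was in 8.26% of the 993 peaks with a mean of up to 1, rose to 46.3% (32.6 to 60.4) of the 54 peaks between 5 and 10, and was in 19.05% (5.45 to 41.9) of the 21 above 40. GCAACNCT was in 6.75% of the peaks of up to 1, in 10.3% of the 399 between 2 and 5 and in 25.9% of those between 5 and 10. It was in 41.9% (24.5 to 60.9) of the 31 between 10 and 20 and 35.4% (22.2 to 50.5) of the 48 between 20 and 40. Above 40 it was in 57.1% (34.0 to 78.2), an interval that overlaps those of both these bins. Of the 100 peaks above 10, 42 held GCAACNCT, an exact interval of 32.2% to 52.3%, against 8.19% of the other 2417. The DRE was in 28 of the 100 and 16.3% of the others, CGATA in 75 of the 100 and 52.8% of the others, and Motif 1 in 11 of the 100 and 9.97% of the others. The other promoter classes were alike in this. Of peaks with GCAACNCT, 17.5% exceeded 10 here, 16.7% of the 36 single-gene downstream and 16.4% of the 177 at the starts of 2 or more genes. Without it the shares were 2.55%, 1.17% and 3.23%. Since GCAACNCT was first found in these peaks and the threshold was set on them, the shares are a description with no test.

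**Figure D5:**
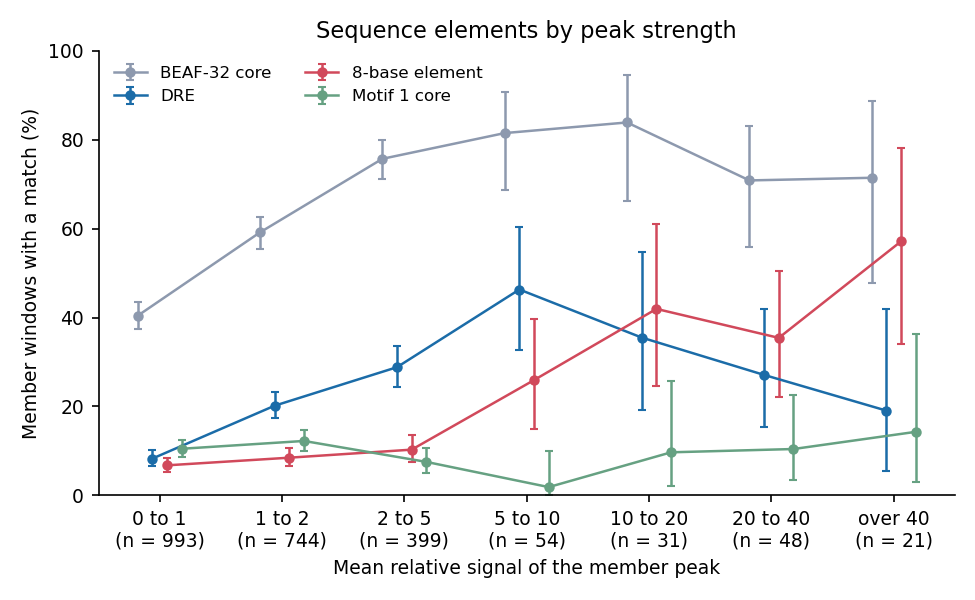
Share of peak windows with a match (y axis, percent, with exact 95% intervals) by mean relative signal of the peak (x axis, 7 bins with their number of peaks) for 4 sequence elements. The 8-base element is at 6.75% in the weakest bin and 57.1% in the strongest, with 41.9% between 10 and 20 and 35.4% between 20 and 40. The DRE is highest, at 46.3%, between 5 and 10.

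Peaks that held both GCAACNCT and CGATA had the highest typical signal. These, 113 in number, had a median relative signal of 2.36, 2.03 and 2.22 in replicates 1, 2 and 4. The 127 with GCAACNCT alone had 1.25, 1.19 and 1.22, the 1239 with CGATA alone 1.32, 1.29 and 1.31, and the 1038 with neither 0.850, 0.836 and 0.877. Peaks with both were thus the highest in every replicate and peaks with neither the lowest. Of the 100 peaks above 10, 26 held both and 9 held neither.

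The bases next to GCAACNCT differed between strong and weak peaks. In the 46 matches at peaks above 10, T came just before the element in 58.7% and G just after it in 80.4%, and both in 23 matches. In the 150 matches at peaks of up to 2, or not matched in all replicates, T came before in 14.0% and G after in 48.7%, and both in 8. Matches at the stronger peaks also lay closer to the summit, with 63.0% within 25 bp against 36.0%. The open base was C in 41.3% at the stronger peaks and in 21.3% at the weaker ones.

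The longer form TGCAACNCTG, defined from these matches, marked a group of 40 upstream peaks. Their median relative signal was 12.9, 12.03 and 11.7 in replicates 1, 2 and 4, where the 200 peaks with the 8 bases alone had 1.29, 1.28 and 1.37 and the 2277 with no match 1.08, 1.04 and 1.09. Of the 40, 21 were above 10, or 52.5%, against 10.5% and 2.55% in the other groups. Replacing the first T by G, as in GGCAACNCTG, gave 75 peaks with medians of 1.22, 1.18 and 1.28. In these same peaks T was the commonest base before the element at peaks above 10, and G at the weakest. The contrast of T with G was thus fixed by the choice and is no test. The form also did not set strong peaks apart cleanly. Of the 40 peaks, 19 were not among those above 10, and 79 peaks above 10 lacked the form.

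The 40 peaks reached from 0.796 to 70.3 in mean relative signal, and 7 of the 25 strongest were among them. After gro, GlcAT-S, MEP-1, CG1354, RpLP2, CG12391 and zf30C came Spred (an inhibitor of Ras signalling) at 37.3 ± 1.78, CG12236 at 35.9 ± 6.16, prod (a protein of satellite DNA) at 33.5 ± 3.83, Pgk (the glycolytic phosphoglycerate kinase) at 32.4 ± 4.41 and REPTOR (a transcription factor downstream of TORC1) at 32.1 ± 3.70 (SD, n = 3 each). Not every peak with the form was strong. At rl, the fly ERK kinase, replicates 1, 2 and 4 gave 1.31, 0.751 and 1.22. At Fntb, a subunit of farnesyltransferase, they gave 1.02, 0.746 and 0.870, and at pigs 0.864, 0.611 and 0.913. These 3 were the lowest of the 39 matched in all replicates, and with the 5 after zf30C they were named after their values were seen.

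Peaks of the other classes were not used to choose the flanking bases of the longer form. The 8 bases within it had been noticed in these data before, and all classes come from the same 3 libraries, so the values are a description. At 11 single-gene downstream peaks with TGCAACNCTG the median relative signal was 9.06, 7.85 and 8.73, against 0.823, 0.837 and 0.801 at the 451 without it. At 30 peaks at the starts of 2 or more genes it was 3.13, 3.06 and 2.67, against 1.37, 1.42 and 1.26. At 33 peaks away from protein-coding starts it was 0.887, 0.924 and 0.750, against 0.693, 0.655 and 0.778, so that the value without it was the higher in replicate 4. The ratio was largest in single-gene promoter peaks and smallest away from promoters, a difference that was not tested. On the 6 arms the genome held 1178 matches to TGCAACNCTG, of which 120, or 10.2%, lay within 100 bp of an IDR summit and 43 within 100 bp of an upstream peak. The form with G, GGCAACNCTG, had 1239 matches, of which 159, or 12.8%, lay near an IDR summit and 76 near an upstream peak, so the form with T did not have the higher share of matches under peaks.

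The 8-mers that most separated the 100 peaks above 10 from the other 2417 overlapped the same form, which was defined on the same peaks, so they add no independent support. ACCCTGCG was in 12 of the 100 and in 7 of the others, TGCAACCC in 14 and 17, and CAACCCTG in 21 and 38. The DRE, TATCGATA, was in 28 and 394. The 8-mers were ranked among those in at least 12 of the 100 after the values were seen.

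Most upstream peaks lay in open space between genes. No annotated gene covered the summit for 70.0% of them, and 20.5% lay inside the span of their own gene, upstream of an internal start. Summits inside another protein-coding gene on the opposite strand made up 3.62% and had medians of 1.06, 1.07 and 1.10. Those inside another gene on the same strand made up 3.58% and were lower, at 0.739, 0.830 and 0.789, and 47.8% of them were among the strongest summits of all 3 replicates. Polr2F, CG12391 and Sik3 were strong exceptions in this last group, with means of 51.9, 42.5 and 39.5.

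The next protein-coding start upstream read in the same direction for 62.9% of the peaks. A divergent start within 1000 bp, the arrangement of genes that share a promoter region, was found for 9.57%, with medians of 1.18, 1.25 and 1.19. A divergent start over 2000 bp away was found for 19.2%, with 1.04, 1.04 and 1.00. The nearest start of any other gene was a median of 2489 bp away. Since a second gene within 500 bp of the summit was excluded, close pairs are under-represented by construction.

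The share of genes with such a peak ranged from 15.0% on arm 3R to 18.1% on X over the 5 large arms. On chromosome 4 it was 32.5%, or 26 of 80 genes, with 30 peaks. Their median relative signal was 1.05, 0.754 and 1.03 in replicates 1, 2 and 4, against 1.17, 1.12 and 1.19 on X.

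Gene groups differed in how often they had an upstream single-gene peak, beside the 16.0% of all protein-coding genes. A group's share also depends on how many of its genes share their start region with a neighbour, so the count of genes with any IDR peak within 500 bp is given beside it, which over all genes was 5941 of 13945. The most frequent was the group of replication and cell-cycle genes, with 16 of 31 (51.6%), and 28 of 31 with any IDR peak. Its strongest member was CycB3, a mitotic cyclin, at 33.9, 26.6 and 37.0. Cdk4, the partner of cyclin D, had 8.78, 7.58 and 8.61, and CycB 3.25, 2.76 and 3.70. The group's median relative signal of 1.10, 1.09 and 1.26 was close to that of all upstream peaks.

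Ribosomal protein genes combined frequency with strength. Of 86 cytosolic ones, 38 (44.2%) had an upstream single-gene peak and 81 had some IDR peak. The 45 peaks had medians of 2.28, 1.85 and 2.11, higher than the 1.11, 1.07 and 1.12 of all upstream peaks in each replicate, and 8 of the 38 genes had a peak above 10. The strongest after RpLP2 were RpL6 at 45.5, 42.8 and 34.9 and RpL22 at 36.7, 29.6 and 38.7. RpL37-1, whose hyphenated symbol the list did not take, had 40.6, 34.6 and 35.1.

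Mitochondrial ribosomal proteins had an upstream single-gene peak at 8 of 73 genes (10.96%), although 62 of the 73 had some IDR peak. The strongest were mRpL41 at 3.95, 3.26 and 5.72, mRpL12 at 3.57, 3.32 and 2.96 and mRpL4 at 2.64, 2.29 and 2.56. None of them reached 10. Aminoacyl-tRNA synthetases, the enzymes that charge tRNAs, had 4 of 33 (12.1%), 25 of 33 with any IDR peak, and their strongest was AlaRS at 2.52, 1.85 and 1.65, followed by PheRS-m (mean 1.09) and AspRS-m (mean 0.821).

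Translation factors had 18 of 52 genes (34.6%), and 37 with any IDR peak. eIF2A was followed by eIF4E1, the cap-binding factor, at 22.0, 19.2 and 19.8 and by eIF3f1 at 18.3, 15.3 and 22.2. Their 20 peaks had medians of 2.97, 2.39 and 1.44, a wide spread over replicates. Oxidative phosphorylation genes had 20 of 76 (26.3%), and 50 with any IDR peak, led by UQCR-14 of complex III at 27.1, 22.2 and 28.2. ATPsynO, a stalk subunit of ATP synthase, had 13.5, 11.4 and 14.2, and COX7C of complex IV 8.03, 7.67 and 8.56.

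Proteasome genes had 9 of 32 (28.1%), and 28 with any IDR peak. Rpn11, the deubiquitinase of the lid, stood alone at 24.6, 29.3 and 18.4, with Rpn12 and Rpn1 next at means of 1.73 and 1.58. General transcription and Mediator genes had 14 of 58 (24.1%), and 49 with any IDR peak. After Polr2F came Tbp, the TATA-binding protein, at 39.9, 36.1 and 38.9, and Polr2E at 2.26, 1.24 and 1.76. In these lists 1 or a pair of genes were strong and the others near the median.

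Among chromatin genes, the Polycomb and Trithorax list had 6 of 23 (26.1%), and 19 with any IDR peak, led by Scm at 6.18, 6.24 and 5.51, osa at 3.70, 3.64 and 3.0 and Pc, which encodes Polycomb, at 3.62, 2.70 and 2.44. Insulator and architectural proteins had 4 of 20 genes, and 16 with any IDR peak. The gene of BEAF-32 itself had 2.06, 2.09 and 1.67, ZIPIC a mean of 0.894 and mod(mdg4) of 0.823. Splicing factors had 3 of 24 (12.5%), although 22 had some IDR peak, led by Prp8 at 3.64, 3.44 and 3.59, with B52 and snRNP-U1-70K at means of 0.994 and 0.742. Nuclear pore genes had 3 of 18 (16.7%), and 17 with any IDR peak: Nup358 at a mean of 1.67, Nup54 at 1.22 and Nup107 at 0.682.

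Genes of the vacuolar proton pump had 5 of 33 (15.2%), and 17 with any IDR peak. VhaPPA1-1 stood at 43.6, 44.3 and 31.5, and VhaSFD and Vha16-1 followed at means of 2.46 and 1.38. Rab GTPases, which direct membrane traffic, had 5 of 23 (21.7%), and 17 with any IDR peak, led by Rab11 at 3.35, 4.25 and 2.71, Rab35 at a mean of 2.64 and Rab19 at 1.99. The share of the proton pump was near the 16.0% of all genes.

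Homeobox and segmentation factors had 2 of 29 (6.90%), and these 2 were the only genes of the list with any IDR peak: bcd, the anterior morphogen, at 1.21, 0.668 and 1.16, and Dfd, matched in replicates 1 and 2 alone at 0.349 and 0.502. Signalling ligands and receptors had 4 of 23 (17.4%), and 12 with any IDR peak, with spi, an EGF receptor ligand, at 2.31, 2.63 and 2.36, N, the Notch receptor, at 1.56, 0.709 and 1.59, and wg, a Wnt ligand, at 0.553, 0.336 and 0.632. Of 119 odorant and gustatory receptor genes and 95 cuticle protein genes, none had an upstream single-gene peak, and 1 and 0 had any IDR peak. No list was tested.

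Values at the edges of the definition are given for reference. Just inside, 9 peaks lay at -1 bp, of which the 8 matched in all replicates had a median mean relative signal of 1.24. The strongest of them were indra at 13.2, 13.1 and 8.57 and CG3420 at 5.21, 4.24 and 4.04. Just outside, among peaks with the summit on the TSS itself, the strongest were CG5787 at 3.74, 3.36 and 4.00 and RpL37A at 2.54, 2.36 and 2.45. At the far edge, t-cup at -499 bp had 0.610, 0.617 and 1.505. Diap1, an inhibitor of cell death, and CG43066, both at -502 bp and so outside, had 0.852, 0.936 and 0.703 and 0.567, 0.490 and 0.959. CG2116 itself had an IDR peak, at -167 bp, but in the start regions of more than 1 gene, so it was not among the 2517.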

How the data were processed

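CG2116-eGFP ChIP-seq peak lists of 3 embryo libraries were used, all on build dm6. Per the deposited description of the files, the authors called peaks on each replicate and on pooled replicates, each with 1 further file of unstated kind, and derived the IDR list from these. Chromatin was sheared by sonication, per the labels. No source used here names the aligner, the peak caller or the IDR cut-off. A peak's deposited signal is the caller's own enrichment value and depends on caller and depth. Depth is unknown, and nothing but the replicate number marks the libraries as separate collections, so the spread may be in part technical.

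Summits were taken from the deposited offset. TSSs came from Ensembl release 115 on 6 arms. The IDR peak's value in a replicate was that of the nearest summit within 100 bp, divided by the replicate median (77.8, 99.0 and 132.8). Recovery used the 7137 strongest summits of each replicate. A neighbour was stronger when its pooled signal was higher within 400 bp. Motifs, 15 in all, were searched in 201-base windows, and 18 gene lists were described by counts. For 6 lists given by name, 150 of 155 symbols matched the annotation. Intervals are exact (Clopper-Pearson, 95%) and cover counting error only. Exact sign-flip permutation tests used the 3 replicates. No test was made over peaks or genes, which are not replicates.

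Named were the 25 strongest peaks matched in 3 replicates, the 3 strongest of each list, the 3 with the largest coefficient of variation above a mean of 5, and those nearest the limits of the definition. Members, lists and motifs were chosen with earlier results of these data known. The code was tested on simulated positions and sequences. Python 3.11.15, pandas 2.3.3, numpy 2.4.6, scipy 1.17.1 and matplotlib 3.10.9 were used. Lists on the older build were not used.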

Additional observations from a re-analysis of the deposited data

How the results depend on the processing

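Of 77 recomputed values, 53 stayed within the limit set for their kind of result. For ratios of signal that limit was the sign alone, so their size was not judged. The count of upstream peaks, 2517, ranged from 2269 to 2755 over the planned settings, and from 1939 to 2063 when peaks had to be recovered in both other replicates. The median position of -80 bp came to -73 bp without peaks beside a stronger summit, to -74 bp in the peaks above the median signal, and to -84.75 to -79.75 bp with 1 replicate left out. Recovery in all 3 replicates, 73.3%, was 55.3% with a match within 50 bp, 79.98% within 200 bp, 90.98% with whole replicate lists and 77.0% to 81.96% in both others with 1 replicate left out. These moves follow from how the settings are built. Windows of 50 bp to each side lowered the shares, to 12.9% for the DRE, 41.7% for CGATA, 5.52% for Motif 1 and 6.63% for the 8-base element. Peaks above the median signal had 24.7% for the DRE, 66.4% for CGATA and 12.2% for the 8-base element, and CGATA came to 55.8% without peaks beside a stronger summit. With 1 replicate left out, which keeps better recovered peaks, the shares were 19.1% to 19.6% for the DRE, 58.4% to 59.2% for CGATA, 10.5% to 10.9% for Motif 1 and 10.7% to 10.8% for the 8-base element. The log2 ratio with over without Motif 1 was -0.03 and changed sign, to 0.0086, without replicate 2, and ranged from -0.065 to 0.0086 over the replicates left out. The log2 ratio of upstream to downstream peaks stayed between 0.37 and 0.44. Alternatives chosen after seeing the data put the share of the 8-base element among peaks above 5, 10 and 20 at 36.4%, 42.0% and 42.0%. No paired analysis was possible because there was 1 group.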
